A study of Mus musculus with 6 samples.

Results

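The 37 genes described here encode the integrins, the chains through which cells hold on to their surroundings, and the laminins, the chains of the basement membrane protein that several integrins bind. They were taken by symbol from all 37991 gene identifiers: 18 integrin alpha chains, 8 integrin beta chains, 5 laminin alpha chains, 3 laminin beta chains and 3 laminin gamma chains. Of these, 30 held enough counts to be tested (19 integrins and all 11 laminins). The other 7 (Itga2, Itgad, Itgae, Itgam, Itgax, Itgb2 and Itgb6) are given by their counts only. The RNA came from the mesenchyme of the mouse Müllerian duct, which becomes oviduct, uterus and upper vagina in females and is lost in males. There were 3 male and 3 female libraries. All embryos, male and female, had the genotype Amhr2Cre/+, R26R YFP/+ on the strain C57BL/6J x 129/SvEv mixed and were taken at embryonic day 14.5. Cells were sorted for YFP, so a cell entered if it or its ancestors had Amhr2-Cre activity, which somatic cells of the gonad can also have. Each library held cells pooled from 2 to 7 embryos, and the labels call the replicates biological.

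An integrin is a pair of 1 alpha and 1 beta chain that spans the cell membrane and links proteins outside the cell to the actin cytoskeleton inside it. A laminin is a cross-shaped trimer of 1 alpha, 1 beta and 1 gamma chain, and the alpha chain carries the main integrin-binding end. Alpha3, alpha6 and alpha7, paired with beta1, and alpha6 paired with beta4 are the main laminin-binding integrins, whereas other alpha chains bind collagens, the RGD sequence of fibronectin and related proteins, or counter-receptors on leukocytes. In the male embryo, anti-Müllerian hormone acts on the Amhr2-bearing mesenchyme, and the neighbouring duct epithelium and its basement membrane are lost. The comparison here is of male with female cells, and no library separates the hormone from other differences between the sexes. The series is titled for osterix, a transcription factor downstream of that hormone.

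Counts in genes ran from 22511872 to 24749859 per library, and counts outside annotated genes from 3.53% to 18.2%. Expressed as CPM (counts scaled to a common library size), Xist ranged from 277.5 to 4729 in female and from 1.78 to 2.22 in male libraries. The 4 Y-linked genes summed to between 52.0 and 395.5 CPM in the male libraries and to at most 0.441 in the female ones, so the libraries match their labels. The 12 markers of duct mesenchyme summed to between 6342 and 9773 CPM across the 6 libraries. Sums for cell types the sorted cells might include are given beside the chains they touch. In bulk RNA, fewer cells of a type and less RNA per cell cannot be told apart, and this holds for every value that follows.

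No integrin or laminin gene passed the test between the sexes with sex as the only term. With edgeR's quasi-likelihood test and Benjamini-Hochberg adjustment over 15227 genes at a threshold of 0.05, 0 of the 30 tested members were higher and 0 were lower in the male libraries. Over all genes tested, 0.841% were higher and 0.387% lower. At an unadjusted p under 0.05 there was 1 member, Lama1, against 9.18% of all genes. DESeq2 called 0 members, beside 5.06% of all genes, with 2 members at an unadjusted p under 0.05. With limma-voom 0 members were called, beside 1.43% of all genes, and 1 member had an unadjusted p under 0.05. The result depends on the model: with the replicate number as a further term in edgeR, 15 of the 30 members passed, beside 27.3% of all genes. The last section names these members and says why the numbers were not taken as pairs. With sex as the only term, the smallest adjusted p of any member was 0.384 (edgeR). The median log2 fold change, male over female, was 0.07 over the members and -0.01 over all genes, with 16 members above 0 and 14 below. The medians of integrins and laminins differed in sign: the 19 integrins had a median of 0.24 (13 above 0 and 6 below) and the 11 laminins a median of -0.32 (3 above and 8 below). This did not hold for every group within them. The 5 laminin-binding integrin chains had a median of 0.00023 (3 above and 2 below), and the 3 laminin beta chains one of 0.62 (2 above and 1 below). The median standard error was 0.46 on the log2 scale for a member and 0.51 for a gene overall.

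The libraries of the sexes did not overlap in CPM for 4 of the 30 tested members, a share of 13.3% beside 13.7% of all genes. Itga9 and Itgal lay higher in all 3 male libraries (2 members, with 6.47% of all genes) and Lama1 and Lamb1 lower (2 members, with 7.27% of all genes). These shares are close to the background and single out nothing about the members as a set. GC content differed in its effect between libraries, so a second fit carried an offset for transcript GC content and length. It called 1 of the 30 members, Itga4, where it called 5.94% of all genes. With the same offset taken out of the CPM values, the sexes did not overlap for 13 of the 30 members, 7 higher and 6 lower in male, and for 22.8% of all genes.

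**Figure D1:**
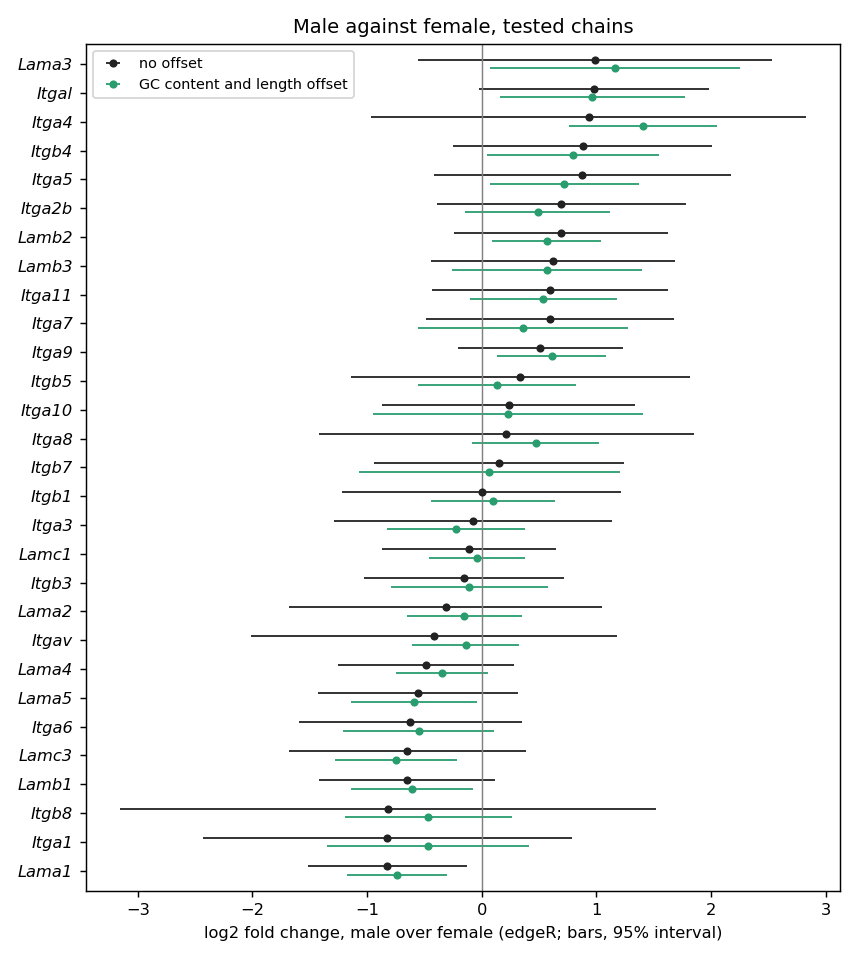
Log2 fold change, male over female, of 29 of the 30 tested chains (points) with the 95% interval (bars) from edgeR, without (black) and with (green) an offset for GC content and length. Without the offset, Lama1 is the chain drawn whose interval lies wholly on one side of 0, from -1.52 to -0.13.

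Among the laminin alpha chains, Lama1 and Lama5 had the highest levels. Laminin alpha1 is a chain of early embryonic basement membranes, and its gene lies on chromosome 17. Lama1 stood at 244, 205 and 265 CPM in female replicates 1 to 3 and at 134, 135 and 134 CPM in male replicates 1 to 3. All male libraries lay below all female ones, and the 3 male values lay within about 1 CPM of each other. Its log2 fold change was -0.82 (SE 0.29, 95% interval -1.52 to -0.13) with an adjusted p of 0.384 (edgeR), and -0.74 with an adjusted p of 0.0702 under the GC offset. Lama5, the alpha chain of most epithelial and vascular basement membranes, measured 128, 189.7 and 187 CPM in the female libraries and 88.7, 157 and 97.5 CPM in the male ones. The groups overlapped through male replicate 2, and the difference was -0.56 (SE 0.37, 95% interval -1.43 to 0.32). Lama4, the chain of blood vessel and mesenchymal laminins, was at 55.1, 39.2 and 62.8 CPM in female and 43.1, 33.9 and 35.0 CPM in male libraries, a log2 difference of -0.49 (SE 0.32). Its groups overlapped, female replicate 2 being lower than male replicate 1.

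Lama2 and Lama3 were the low alpha chains. Lama2, best known from muscle and peripheral nerve, was at 18.4, 7.82 and 13.7 CPM in female and 18.9, 5.68 and 7.54 CPM in male libraries. In both sexes replicate 1 was the highest and replicate 2 the lowest, and the log2 difference of -0.32 (SE 0.57) was smaller than its error. Lama3, the alpha chain of the laminin that anchors skin and other stratified epithelia, held 72 counts in all female libraries together and 134 in all male ones. Its CPM values were 1.43, 0.295 and 1.08 in female and 2.75, 1.73 and 1.14 in male libraries, overlapping between male replicate 3 and female replicate 1. The log2 fold change was 0.99 (SE 0.65, adjusted p of 0.949 by edgeR), the highest positive value among the tested members.

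To compare genes with each other, CPM was divided by the length of the longest transcript in kilobases. On that scale Lama1 averaged 25 ± 3.19 (SD, n = 3) in female and 14.1 ± 0.0571 in male libraries, Lama5 14.8 ± 3.06 and 10.0 ± 3.25, and Lama4 8.66 ± 1.99 and 6.17 ± 0.829. The order Lama1, Lama5, Lama4, Lama2, Lama3 held for the means of both sexes, although Lama1 and Lama5 lay close together in male replicate 2, with a ratio of 1.03. The 5 alpha chains together summed to 48.0, 45.5 and 56.2 CPM per kilobase in female and 31.2, 34.3 and 29.3 in male libraries. No male sum reached a female one, and the mean was 49.9 ± 5.57 in female and 31.6 ± 2.52 in male libraries. Within the class the share of Lama1 was 50.1% ± 3.01 (SD, n = 3) in female and 44.8% ± 3.35 in male libraries, which an exact two-sided permutation test gave p = 0.2. The smallest p that this test can give with 3 against 3 libraries is 0.1. Across the 16 shares and ratios tested in this way the lowest Benjamini-Hochberg p was 0.457, so none passed. Lama3 made up 0.176% ± 0.111 of the alpha chains in female and 0.561% ± 0.245 in male libraries. Its groups did not overlap in this share (p = 0.1 by exact permutation).

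Cell types known for these chains were measured by marker lists. Duct epithelium (12 markers, 9 tested, of which Epcam alone fell, from between 10.1 and 15.5 CPM to between 2.13 and 3.08, edgeR adjusted p of 0.0381) summed to between 239 and 801 CPM in female and between 168 and 535 CPM in male libraries. The keratin genes Krt8, Krt18 and Krt19 made most of that sum. Among the other duct markers, Pax8 lay between 8.68 and 22.6 CPM and the cadherin Cdh1 was at 1.6 CPM or less in every library. Pax2, Cldn3, Cldn6 and Esrp1 stayed under 1 CPM throughout. Mesothelium (6 markers, none passing) summed to between 600.1 and 714 CPM in female and between 522 and 545 CPM in male libraries, without overlap. Its markers did not share a direction, with 3 log2 fold changes above 0 and 3 below. Wt1, the highest of them, overlapped, at 296 to 405 CPM in female and 235 to 366 CPM in male libraries. Endothelium (8 markers, 7 tested, none passing) summed to between 60.0 and 101 CPM in female and between 147 and 330.5 CPM in male libraries, without overlap. Kdr made most of that sum, while Pecam1 and Cdh5 were at 2.52 CPM or less throughout. Esam had the opposite sign, at 5.88, 11.0 and 9.92 CPM in female and 1.91, 3.11 and 3.75 CPM in male libraries, and with the GC offset Kdr rose (edgeR adjusted p of 0.0109) and Esam fell (0.00983). Sertoli cell markers of the gonad (6, of which 3 rose) summed to between 15.2 and 16.4 CPM in female and between 63.8 and 102 CPM in male libraries, and those of Schwann cells and neurons (7, 4 tested, 1 rising, Foxd3 at 0) to between 15.4 and 30.2 and between 67.5 and 76.6 CPM. The part of these cells in the laminin values was not tested.

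The beta chains differed in sign. Lamb1 and Lamb2 take the same place in the trimer, laminin beta1 in most embryonic laminins and laminin beta2 in those of kidney glomerulus, vessels and synapses. The promoters of this pair are shown because the chains are alternatives whose log2 fold changes had opposite signs. Each is 250 bases before to 50 after the start, 5′ to 3′, from RefSeq on GRCm38.p6, with capitals marking CCGCCC or its reverse complement GGGCGG (both strands searched, no overlaps), the GC box. Lamb1 lies at chr12:31265043-31265342 and Lamb2 at chr9:108479612-108479911, both on the plus strand.
Lamb1: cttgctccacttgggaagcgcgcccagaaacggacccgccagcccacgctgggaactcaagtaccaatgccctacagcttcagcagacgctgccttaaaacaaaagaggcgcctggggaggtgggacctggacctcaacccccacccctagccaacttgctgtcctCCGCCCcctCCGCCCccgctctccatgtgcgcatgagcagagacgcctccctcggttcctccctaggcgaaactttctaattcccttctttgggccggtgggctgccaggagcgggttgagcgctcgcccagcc
Lamb2: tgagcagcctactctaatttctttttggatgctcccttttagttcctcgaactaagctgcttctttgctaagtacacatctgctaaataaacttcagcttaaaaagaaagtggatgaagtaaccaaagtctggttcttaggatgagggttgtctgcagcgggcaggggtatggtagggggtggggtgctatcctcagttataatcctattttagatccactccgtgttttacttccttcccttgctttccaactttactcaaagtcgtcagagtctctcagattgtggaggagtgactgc
The Lamb1 window holds 2 such matches at a GC content of 63.7%, and the Lamb2 window 0 matches at 44.0%. The letters occur in 35.7% of the 32851 promoters in the table and in 12 of the 26 promoters listed for 23 members. A match is a description of the letters and not of a bound site.

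Lamb1 measured 391, 293 and 377 CPM in female and 267, 186 and 222 CPM in male libraries. Every male library lay below every female one, with a log2 fold change of -0.65 (SE 0.32, 95% interval -1.42 to 0.12) and an adjusted p of 0.71 (edgeR). Lamb2 measured 105, 166 and 122 CPM in female and 137, 288 and 211 CPM in male libraries. Here the male libraries tended to be the higher ones, but female replicate 2 exceeded male replicate 1, and the log2 fold change was 0.69 (SE 0.39, 95% interval -0.25 to 1.62, edgeR adjusted p of 0.833). The ratio of Lamb1 to Lamb2 per kilobase was 3.61, 1.72 and 3 in female and 1.90, 0.631 and 1.02 in male libraries. Lamb1 thus had the higher level in all libraries but male replicate 2, and in male replicate 3 the chains were nearly equal. As a share of the beta chains, Lamb1 was 72% ± 7.99 (SD, n = 3) in female and 51.4% ± 13.4 in male libraries (difference -20.6 percentage points, p = 0.2 by exact permutation). The overlap came from female replicate 2, at 62.9%, and male replicate 1, at 65.3%. Lamb3, the beta chain of the laminin of stratified epithelia, was at 0.735 to 1.43 CPM in female and 1.30 to 2.36 CPM in male libraries. It made up 0.280% ± 0.0964 of the beta chains in female and 0.471% ± 0.143 in male libraries, with no overlap of the shares (p = 0.1 by exact permutation).

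**Figure D2:**
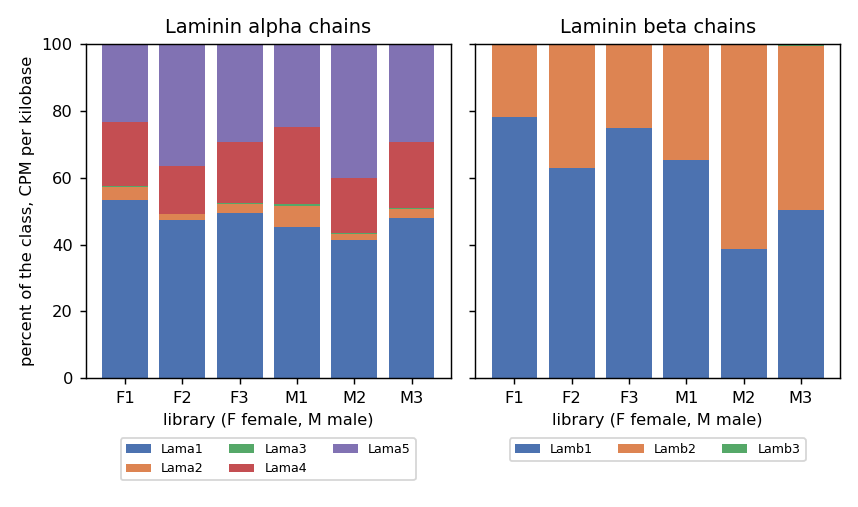
Share of each laminin alpha and beta chain within its class, in percent of summed CPM per kilobase, for each library (F, female; M, male). Lamb1 takes between 62.9% and 78.2% of the beta chains in the female libraries and between 38.5% and 65.3% in the male ones; Lama3 and Lamb3 are too low to see in most bars.

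Lamc1, the gamma chain of nearly every laminin, was at 346, 277 and 386 CPM in female and 363, 297 and 274 CPM in male libraries. The groups overlapped almost fully, with a log2 fold change of -0.11 (SE 0.32, 95% interval -0.87 to 0.65). Lamc3 was at 36.2, 68.1 and 56.3 CPM in female and 21.0, 49.2 and 32.2 CPM in male libraries. Within each sex replicate 1 was the lowest and replicate 2 the highest, and the difference was -0.65 (SE 0.43, edgeR adjusted p of 0.97).

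Set against Lamc1, both chains with separate groups were lower. Lama1 over Lamc1 per kilobase was 0.563, 0.593 and 0.550 in female and 0.296, 0.364 and 0.391 in male libraries. Lamb1 over Lamc1 was 1.49, 1.4 and 1.29 in female and 0.971, 0.828 and 1.07 in male libraries. Neither ratio overlapped between the sexes. Both were chosen after the values were seen and carry no test, but a ratio within a library does not depend on the scaling between libraries. The summed beta chains (80.6 to 87.2 CPM per kilobase in female, 70.8 to 83.7 in male) overlapped.

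**Figure D3:**
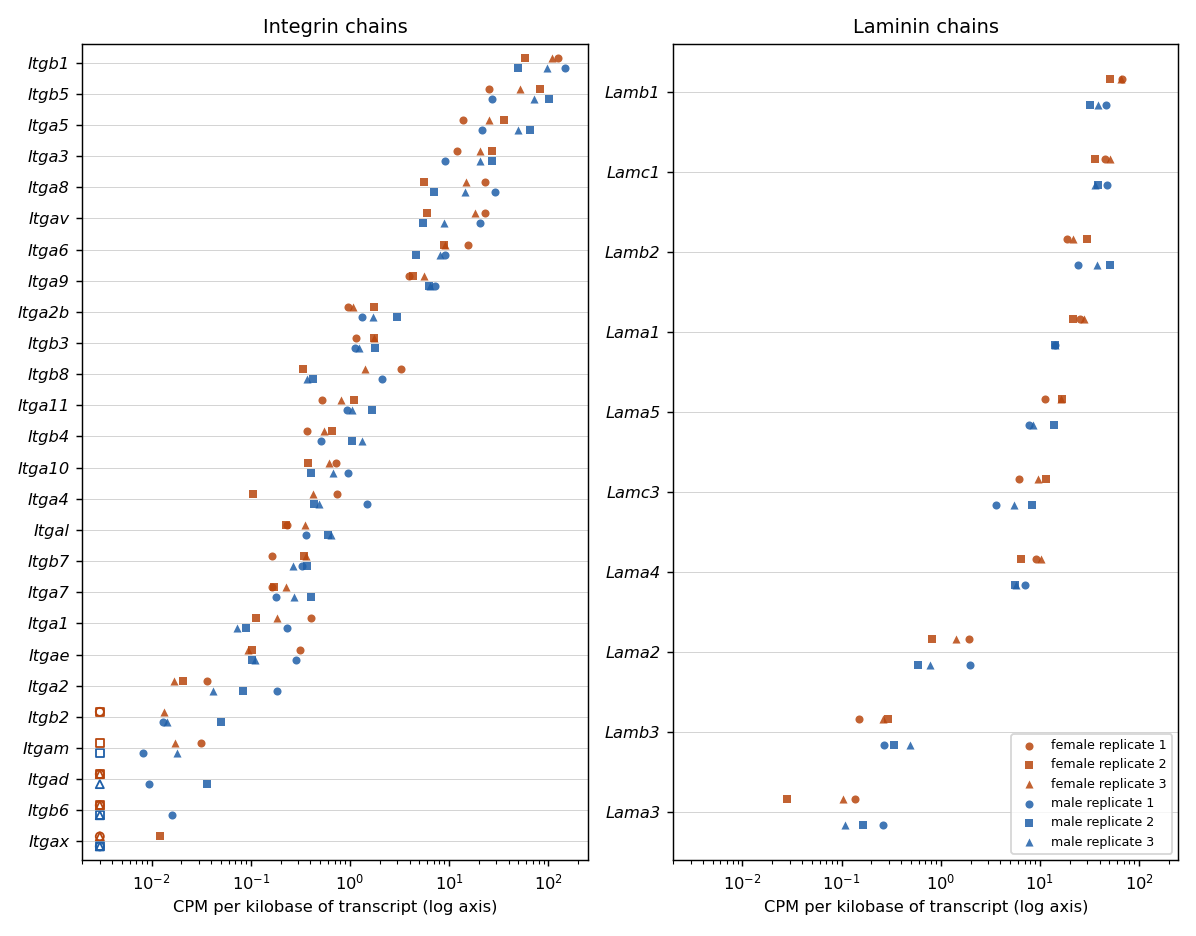
Level of 36 of the 37 chains in each library, in CPM per kilobase of the longest transcript on a log axis, with female libraries above and male libraries below each line. Open symbols at the left edge are libraries with a count of 0; Itgb1, Itgb5, Lamb1 and Lamc1 lie at the top, and 7 integrin chains at the bottom of the left panel were not tested.

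Of the receptors for laminin, Itgb1 had the highest level of all members. Integrin beta1 pairs with most of the alpha chains measured here. Its CPM values were 478, 222 and 416 in female and 558, 189 and 369 in male libraries. The sexes spanned the same range, with replicate 2 the lowest in each, and the log2 fold change was 0.00 (SE 0.51, 95% interval -1.22 to 1.22). That interval leaves room for a change of more than 1 log2 unit either way, so equality is not shown. Itga3, the receptor chain for laminins with alpha5 or alpha3, was at 59.0, 132 and 101 CPM in female and 44.4, 132 and 100.3 CPM in male libraries. The sexes overlapped, and the difference of -0.08 (SE 0.51) was far below the spread within a sex. Itga6, which binds laminins with alpha1 as well as alpha5, was at 67.1, 38.8 and 39.4 CPM in female and 39.5, 19.9 and 34.9 CPM in male libraries. Male replicate 1 just exceeded female replicates 2 and 3, and the log2 fold change was -0.62 (SE 0.41, 95% interval -1.60 to 0.35, edgeR adjusted p of 0.949). Itga7, the laminin receptor chain of muscle, stayed between 0.661 and 1.63 CPM in all libraries. Skeletal muscle markers (6, 1 tested, Myf5 at 0) summed to at most 3.93 CPM in any library.

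Itgb4, the partner of alpha6 in the hemidesmosomes of epithelia, was low. It measured 2.28, 4.08 and 3.40 CPM in female and 3.17, 6.53 and 8.26 CPM in male libraries. Male replicate 1 lay among the female values, and the log2 fold change was 0.88 (SE 0.47, 95% interval -0.25 to 2.01, edgeR adjusted p of 0.792). Per kilobase the log2 ratio of Itgb4 to Itgb1 averaged -7.51 ± 0.98 (SD, n = 3) in female and -6.63 ± 1.36 in male libraries (p = 0.4 by exact permutation). Lama3 and Lamb3, chains of the laminin that this receptor anchors to, were low as well: per kilobase Lama3 averaged 0.0887 ± 0.0552 (SD, n = 3) in female and 0.178 ± 0.0775 in male libraries and Lamb3 0.236 ± 0.0749 and 0.362 ± 0.111. Epithelial marker sums are given above, and their part in the Itgb4 value was not tested.

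The receptor chains were then compared with the laminin alpha chains they bind. Itga3, Itga6 and Itga7 together came to 27.9, 36.3 and 30.1 CPM per kilobase in female and 18.5, 32.2 and 29.0 in male libraries. These sums overlapped between the sexes, whereas those of the laminin alpha chains did not. The log2 ratio of the 3 receptor chains to the 5 laminin alpha chains was -0.79, -0.33 and -0.90 in female and -0.76, -0.09 and -0.02 in male libraries. Laminin alpha RNA exceeded receptor alpha RNA in all 6 libraries, by least in male replicates 2 and 3, and the ratio was 0.38 higher in male (p = 0.2 by exact permutation), or between 0.24 and 0.62 higher with 1 library left out. Within the receptor chains Itga3 made up 43.5%, 74.7% and 68.9% in female and 49.4%, 84.4% and 71.1% in male libraries. Replicate 1 of either sex had about equal parts of Itga3 and Itga6 and the other libraries mostly Itga3, so the balance varied more within a sex than between the sexes (mean 62.4% ± 16.6 against 68.3% ± 17.7, p = 0.6 by exact permutation). Itga7 held 0.607% ± 0.145 in female and 1.06% ± 0.176 in male libraries, without overlap (p = 0.1 by exact permutation). On the laminin side, the ratio of Lama1 to Lama5 was 2.27, 1.29 and 1.70 in female and 1.81, 1.03 and 1.64 in male libraries, also overlapping.

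**Figure D4:**
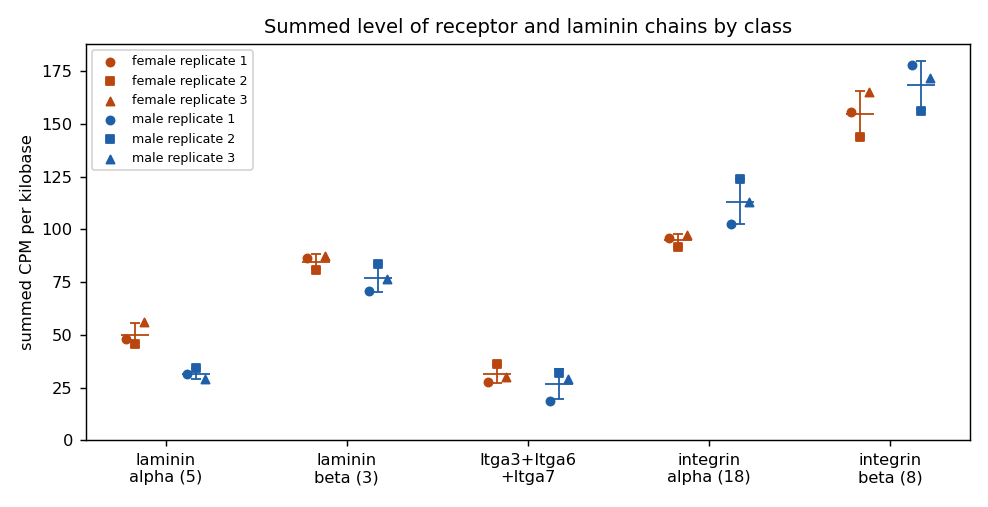
Summed CPM per kilobase of the chains of each class (number of genes in brackets) in each library, with the mean and SD of 3 libraries per sex. The laminin alpha sums lie between 45.5 and 56.2 in female and between 29.3 and 34.3 in male libraries; the integrin alpha sums lie between 91.4 and 97.4 in female and between 103 and 124 in male libraries.

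All 18 integrin alpha chains together summed to 95.8, 91.4 and 97.4 CPM per kilobase in female and 103, 124 and 113 in male libraries, again without overlap but in the other direction from the laminin alpha chains. The integrin beta sums (156, 144 and 165 in female, 178, 156 and 172 in male) overlapped. Most of the alpha sum came from Itga5 and the other chains that bind the RGD sequence. Itga5, the fibronectin receptor chain, was at 61.0, 157 and 111 CPM in female and 93.9, 293 and 218 CPM in male libraries. Within each sex replicate 1 was lowest and replicate 2 highest, the sexes overlapped, and the log2 fold change was 0.88 (SE 0.54, 95% interval -0.42 to 2.18, edgeR adjusted p of 0.905). Per kilobase Itga5 had the highest level of the alpha chains, 24.8 ± 10.8 (SD, n = 3) in female and 45.6 ± 22.7 in male libraries, with Itga3 next at 20 ± 7.54 and 19.0 ± 9.12. The ratio of Itga5 to Itga3 within a library was 1.14, 1.31 and 1.21 in female and 2.33, 2.44 and 2.39 in male libraries, so Itga5 was the higher of the pair in every library. This ratio was chosen after the values were seen and carries no test; it spread little within a sex and did not overlap between the sexes. Its ligand gene Fn1, chosen here after its values were seen, was at 1385, 1432 and 1728 CPM in female and 1277, 1147 and 1173 CPM in male libraries.

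Itga8 and Itgav are the other abundant RGD-binding chains. Itga8, the receptor chain for nephronectin, was at 135, 32.4 and 85.9 CPM in female and 169.5, 41.2 and 84.0 CPM in male libraries. The order of the replicates was the same in both sexes, and the difference of 0.22 (SE 0.68) was below its error. The nephronectin gene Npnt, chosen after its values were seen, was at 38.5, 44.2 and 53.6 CPM in female and at 33.5, 24.6 and 26.6 CPM in male libraries (log2 fold change -0.69, edgeR adjusted p of 0.619). Itgav, which pairs with several beta chains and takes part in activating latent TGF-beta, ranged from 41.8 to 162 CPM in female and from 38.9 to 146 CPM in male libraries (log2 fold change -0.42, SE 0.67). Itga2b, the platelet alpha chain, was at 3.31, 5.95 and 3.68 CPM in female and 4.59, 10.4 and 5.94 CPM in male libraries, overlapping, with a log2 fold change of 0.69 (SE 0.46). Megakaryocyte and platelet markers (7, of which 5 were too low to test) summed to between 1.13 and 2.28 CPM in female and between 2.37 and 3.76 CPM in male libraries, without overlap, and their part in the Itga2b value was not tested.

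Besides beta1, alpha-v pairs with the products of Itgb3, Itgb5, Itgb6 and Itgb8, of which Itgb5 was abundant and the others were low. Itgb5, a vitronectin receptor chain, was at 83.1, 271 and 171 CPM in female and 89.7, 338 and 236 CPM in male libraries. The replicate order was again shared by the sexes and the difference was 0.34 (SE 0.62). Per kilobase Itgb5 averaged 53.4 ± 28.7 (SD, n = 3) in female and 67.4 ± 38.0 in male libraries, next after Itgb1 at 97.4 ± 35.0 and 97.5 ± 48.5. Their ratio was 4.94, 0.703 and 2.09 in female and 5.35, 0.481 and 1.34 in male libraries, with Itgb5 the higher of the pair in replicate 2 of either sex. Itgb3, the beta chain of the platelet and osteoclast receptors, was at 6.61, 10.1 and 10.0 CPM in female and 6.54, 10.3 and 7.16 CPM in male libraries, a difference of -0.16 (SE 0.37). Itgb8, whose pair with alpha-v activates latent TGF-beta, was at 27.8, 2.80 and 12.0 CPM in female and 17.5, 3.56 and 3.12 CPM in male libraries. The female values alone spread over 9.94-fold, and the log2 fold change of -0.82 had a standard error of 0.98. Itgb6, an epithelial chain, had 2 counts in male replicate 1 and 0 elsewhere. A count of 0 allows up to 3 counts, at most 0.148 CPM (male replicate 2).

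Itga9 and Itga4 form a family of their own and bind tenascin-C, fibronectin splice forms and the cell surface protein Vcam1. Itga9 was at 27.7, 30.3 and 39.6 CPM in female and 50.8, 43.6 and 44.9 CPM in male libraries. All 3 male libraries were above all female ones, by a log2 fold change of 0.51 (SE 0.30, 95% interval -0.21 to 1.23, edgeR adjusted p of 0.871), and the groups stayed apart with the GC offset taken out. Smooth muscle markers, of a tissue that can carry this chain, summed to between 67.6 and 195 CPM in female and between 226 and 640.3 CPM in male libraries, without overlap. Of the 8, none passed without the GC offset (6 at an unadjusted p under 0.05) and 5 rose with it (Acta2, Actg2, Cnn1, Myocd and Tagln), while Myh11 was at 7.72, 3.88 and 7.68 CPM in female and 2.10, 0.494 and 1.05 CPM in male libraries. The part of smooth muscle in the Itga9 value was not tested. The tenascin-C gene Tnc, chosen after its values were seen, was at 9.41, 11.3 and 14.4 CPM in female and 39.7, 31.1 and 26.3 CPM in male libraries, which is 1.47 on the log2 scale (edgeR adjusted p of 0.128) and with the GC offset 1.53, where it passed (adjusted p of 0.0109). Itga4 was at 7.2, 1.03 and 4.12 CPM in female and 14.6, 4.25 and 4.80 CPM in male libraries. Female replicate 1 exceeded male replicates 2 and 3, so the groups overlapped, and the log2 fold change was 0.93 (SE 0.80, edgeR adjusted p of 1). Leaving out 1 library moved it from 0.13 (without male replicate 1) to 1.61 (without female replicate 1). With the GC offset it was 1.41 (SE 0.27) and Itga4 rose (edgeR adjusted p of 0.0292). Its transcript has a GC content of 41.1%, among the lowest of the members, and 8.04% of its exon bases lie opposite exons of Cerkl, from which reads cannot be told apart without strand. Vcam1, its partner on other cells and chosen after its values were seen, was at 2.76, 1.87 and 2.48 CPM in female and 0.535, 0.643 and 0.548 CPM in male libraries (log2 fold change -2.04, edgeR adjusted p of 0.0664). With the GC offset the log2 fold change of Vcam1 was -1.78 (edgeR adjusted p of 0.183).

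The chains of leukocyte integrins were at or near the floor. Itgal, the alpha chain of the lymphocyte receptor for Icam proteins, was the one with separate groups, at 1.21, 1.18 and 1.84 CPM in female and 1.87, 3.16 and 3.33 CPM in male libraries. Male replicate 1 lay just above female replicate 3, and the log2 fold change was 0.98 (SE 0.42, 95% interval -0.02 to 1.98, edgeR adjusted p of 0.564). Its only beta partner, Itgb2, had 1 count in all female and 5 in all male libraries, and was not tested. Itgb7 lay between 0.441 and 0.989 CPM in all libraries, and Itgae between 0.360 and 1.21 CPM. Itgam, Itgad and Itgax had at most 4 counts in any library. The 10 markers of leukocytes and macrophages, of which 6 were tested and none passed, summed to between 6.98 and 12.1 CPM in female and between 9.99 and 15.4 CPM in male libraries. The leukocyte marker Ptprc was at most 0.514 CPM in any library, and the part of such cells in the Itgal value was not tested.

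The alpha chains that bind collagen were all low. Itga1 was at 4.48, 1.23 and 2 CPM in female and 2.56, 0.989 and 0.801 CPM in male libraries, overlapping, with a log2 fold change of -0.82 (SE 0.68). Itga10 ranged from 1.92 to 4.78 CPM and Itga11 from 2.61 to 8.35 CPM over the 6 libraries, with log2 fold changes of 0.24 (SE 0.46) and 0.60 (SE 0.43). Itga2 was too low to test, with 7, 3 and 3 counts in female and 34, 12 and 7 counts in male libraries. No chain of this group reached 2 CPM per kilobase in either sex on average.

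Genes around the chains were read from 4 further lists. Of the other basement membrane genes, 0 of 13 tested passed, with a median log2 fold change of 0.37. The one with the smallest p was Nid1, nidogen-1, which ties the laminin gamma1 chain to collagen IV. Nid1 was at 336, 229 and 335 CPM in female and 188, 115 and 134 CPM in male libraries, all male below all female, its log2 fold change being -1.04 (SE 0.35; edgeR adjusted p of 0.347). With the GC offset it was -0.93 and passed, with an adjusted p of 0.032, as did Smoc1 (-1.20, adjusted p of 0.0451). Nid2, nidogen-2, chosen like Smoc1 after its values were seen, had the opposite sign: 122.5, 154 and 165 CPM in female and 234, 211 and 244 CPM in male libraries, without overlap (log2 fold change 0.64, edgeR adjusted p of 0.647). Of the laminin receptors that are not integrins, 0 of 7 passed (median -0.26), and Dag1, dystroglycan, was at 147, 245 and 233 CPM in female and 135, 204 and 136 CPM in male libraries, overlapping. Of the integrin ligands other than laminins, 1 of 14 tested rose and 0 fell (median 0.23). This was Ibsp, the bone sialoprotein of mineralising tissue, with 1 count in all female and 472 counts in all male libraries (edgeR adjusted p of 0.0253). The call was lost when any of 5 single libraries was left out, every one but male replicate 1. Those 5 fits called between 0 and 14 genes in all, against 187 with all libraries, so the loss is not particular to Ibsp. The fitted log2 fold change stayed between 7.76 and 10.2 with any library left out. With 1 count on the female side its size depends on the prior count. Of the adaptors and activators inside the cell, 0 of 26 tested passed (median 0.16), Apbb1ip having the smallest p with 0.836 to 1.69 CPM in female and 0.198 to 0.497 CPM in male libraries (edgeR adjusted p of 0.255).

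**Figure D5:**
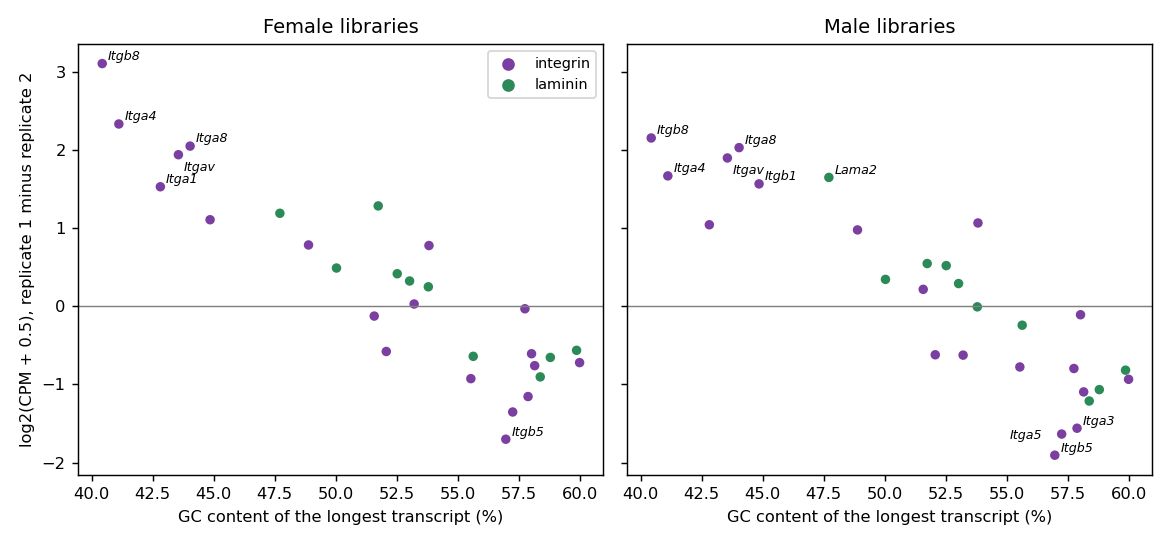
Difference between replicates 1 and 2 of the same sex, in log2(CPM + 0.5), against the GC content of the longest transcript for 29 of the 30 tested chains (purple, integrins; green, laminins). Chains under 50% GC lie above 0 in both panels, with Itgb8 at the far left.

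The spread within a sex was ordered by GC content. Across the 30 tested members, the difference between replicates 1 and 2 in log2(CPM + 0.5) correlated with transcript GC content at r = -0.902 in female and -0.874 in male libraries. This is a description over genes that share the same libraries. All 8 members under 50% GC were higher in replicate 1 than in replicate 2 in both sexes, with medians of 1.73 in female and 1.66 in male libraries. Of the 22 members at 50% GC or over, 7 in female and 6 in male libraries were higher in replicate 1 (medians -0.57 and -0.70). Itgb8, Itga4 and Itgb1, with GC contents of 40.4%, 41.1% and 44.9%, lie on the low side and Itga5 and Lamb2, with 57.3% and 58.8%, on the high side. The chains with separate groups were in the middle, Lama1 at 53.8% and Lamb1 at 52.5%, as was Lamc1 at 53.0%.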

How the data were processed

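RNA was sequenced from 3 male and 3 female libraries of sorted duct mesenchyme per the labels' protocols (TruSeq v2 kit, at least 100 ng of RNA each, paired reads of 76 bases). The deposited values are raw counts per gene. The submitters' processing notes list TopHat, HTSeq and DESeq, and mm9 as the build, with no roles. Which annotation release and strand setting were used is not given in the sources used here; strand is not marked by this kit. The 5 summary lines per file were left out; counts on several genes were 6.51% to 10.0% of the uniquely placed counts. A symbol was found for 32919 identifiers.

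Members were all rows whose symbol is Itga or Itgb with a number or letter, or Lama, Lamb or Lamc with a number. The values of 1 member are not reported here; it is kept in counts, medians and correlations over all members. Members and lists were chosen with earlier results of these data known. In R 4.3.3, genes passing filterByExpr went into edgeR 4.0.16 after TMM scaling (quasi-likelihood test, robust, sex only, two-sided; Benjamini-Hochberg). A standard error is the size of the log2 fold change divided by the root of its F statistic. CPM use TMM library sizes; per-kilobase values use the longest GENCODE transcript of GRCm38, whose annotation also gave GC content (96.4% of genes tested had a value). The GC offset is a spline with 5 degrees of freedom on GC content and length, fitted to log2 CPM (prior count 2). Shares and ratios were compared by exact permutation of libraries. Values are given library by library for the 3 highest chains per kilobase in each class, the 4 largest fold changes in each direction at 1 CPM or more, and each chain called under an alternative; list genes are those past the threshold or with the smallest p. Alternatives were DESeq2 1.42.0, limma-voom (limma 3.58.1), other scalings and filters, the replicate number as a term, and leaving out libraries; leaving out both libraries of a number and recounting non-overlap under other scalings were chosen after seeing the data. The edgeR fit with sex as the only term was also run on simulated counts with known changes. Those counts held no effect of GC content or replicate number, and the alternative fits were not simulated.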

Additional observations from a re-analysis of the deposited data

How the results depend on the processing

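The labels number the replicates 1 to 3 in each sex. With the mean of each sex taken from log2 CPM, the deviations of same-numbered libraries correlated at 0.927, 0.852 and -0.069 over 15227 genes. Between different numbers the values ran from -0.913 (female 2 with male 1) to 0.590 (female 2 with male 3). The deviations of number 3 did not go together, and the numbers were not taken as pairs. The 3 deviations of a sex sum to 0 for each gene, so these correlations are not independent. They cannot show that same-numbered libraries share no effect. With the replicate block, 15 of 30 members passed (27.3% of all genes did), 8 higher (Itga2b, Itga4, Itga5, Itga9, Itgal, Itgb4, Lama3, Lamb2) and 7 lower in male (Itga6, Itgb8, Lama1, Lama4, Lama5, Lamb1, Lamc3), and 14 with the block and the GC offset together (29.0% of all genes). The GC offset alone gave 1 (5.94% of all genes). With any single library left out the count was 0. Those fits called between 0% and 1.12% of all genes, so this 0 says little about the members. Members whose sexes do not overlap numbered 4, and 13 with the GC offset. Of 60 tested genes of the other 4 lists, 1 passed, 3 with DESeq2 (5.06% of all genes), 26 with the block, 7 with the GC offset (5.94% of all genes) and 31 with both. With a single library left out 0 to 1 passed, again beside 0% to 1.12% of all genes. Without replicate 2 or replicate 3 of both sexes 0 passed, and these fits called 0% of all genes. The median of the members ran from -0.00016 to 0.22 with a library left out, the highest without male replicate 3. Log2 fold changes that changed sign when a library was left out ranged from -0.43 to 0.26 for Itga3, -0.43 to 0.73 for Itga8, -0.0935 to 0.50 for Itga10, -0.42 to 0.31 for Itgb1, -0.11 to 0.81 for Itgb5, -0.14 to 0.32 for Itgb7 and -2.09 to 0.13 for Itgb8. Without a change of sign, Itga4 ran from 0.13 to 1.61, Itga1 from -1.52 to -0.15 and Itgav from -1.12 to -0.0368. Itgb1 was also -0.0617 with limma-voom, -0.0114 with no filter, -0.0608 with the block and -0.20 without replicate 1 of both sexes. Itgb7 was -0.0216 with the block and GC offset and -0.16 without replicate 1 of both sexes, and Lamc1 0.0628 without replicate 3 of both sexes. Differences in share, male minus female in percentage points, ranged from -2.69 to 5.09 for Lama5, -0.57 to 1.71 for Lama2, -3.50 to 15.4 for Itga3 and -15.9 to 3.05 for Itga6. The cause was not tested. In every alternative run, 21 of the 30 tested members kept their sign; for the 4 whose sexes do not overlap, leaving out a library could hardly turn it. With 3 libraries a sex, intervals of 1 log2 unit or more either way remain for Itga3, Itga8, Itgav, Itgb1, Itgb5, Itgb8 and Lama2, so differences of that size cannot be told from 0.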
